A study of Homo sapiens with 5 samples.

Results

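The cytosolic ribosomal protein genes encode the protein part of the ribosome outside mitochondria. They were taken from the gene table as the protein-coding genes whose symbol is RPL or RPS with a number and an optional letter, together with RPLP0, RPLP1, RPLP2 and RPSA. This gave 84 of the 60504 listed genes (19797 of them protein-coding), with 52 genes of the large subunit and 32 of the small subunit. Of these, 77 encode the core proteins and 7 are paralogues of a core gene (RPL3L, RPL7L1, RPL10L, RPL22L1, RPL26L1, RPL39L and RPS27L). The symbol rule does not take in genes such as FAU, RPL36AL and RACK1, which also encode ribosomal proteins.

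Total RNA of DAOY cells was sequenced to compare gene expression after knockdown of the circular RNA circ_63706 with a control. DAOY is an established human cell line from a medulloblastoma of the sonic hedgehog (SHH) subgroup. All cells received 20 nM siRNA with a lipid reagent for 48 h, either non-targeting (si-NC, 2 libraries) or against circ_63706 (si-circ_63706, 3 libraries), and every library came from this single line. The labels do not state which siRNA against circ_63706 each library received, nor whether libraries came from separate cultures, so p values measure the spread between these samples, which may be technical. Expression is given as TPM, a measure in which reads of a gene are divided by its length and scaled so that each library sums to 1000000. Read counts were not analysed here, so neither the depth of a library nor its counting error is known.

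Each ribosome holds a single copy of most of these proteins, so cells make them in near-equal amounts from many genes spread over the genome. Most of the mRNAs start with a C followed by a run of pyrimidines, the 5′ terminal oligopyrimidine (TOP) tract, through which the mTORC1 kinase and the RNA-binding protein LARP1 control their translation as a group. Unassembled RPL5 and RPL11 bind the ubiquitin ligase MDM2, and loss of single genes such as RPS19 or RPS14 impairs red cell formation.

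The annotated starts of several members show this tract. The lines give 20 bases before the start and the first 10 bases of the transcript, on the strand of the gene, from RefSeq on GRCh38.p14. Capitals mark a TOP start, counted as a C at the first base followed by at least 4 pyrimidines, as far as it lies in the window. The first 4 lines are members that were higher with si-circ_63706.
RPL26: accggaagcagcgtgtagttCTCTTCCCTT
RPS24: ttggccggcgaatcgtggttCTCTTTTCCT
RPL36A: ttccgtttgcctcgcggtttCTTTCTTTCC
RPL27A: gagacttggcgaaggccttcCTTTTTCgtc
They lie at chr17:8383184-8383213 (minus strand), chr10:78033843-78033872 (plus), chrX:101390991-101391020 (plus) and chr11:8682772-8682801 (plus). The next 5 lines are members that were lower.
RPS19: gcccgggaaaccccgtcgttCCCTTTCCCC
RPS14: tcgctccgccccctcccactCTCTCTTTCC
RPL41: gtagacggaacttcgcctttCTCTCggcct
RPL13: tggccggccctgctatcatcccagagtgca
RPL7L1: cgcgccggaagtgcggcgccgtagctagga
They lie at chr19:41860235-41860264 (plus), chr5:150449730-150449759 (minus), chr12:56116613-56116642 (plus), chr16:89560637-89560666 (plus) and chr6:42879596-42879625 (plus). The last lines pair paralogues with their core gene, RPL22L1 with RPL22 and RPS27L with RPS27, and add RPL26L1, RPL39 and RPL35, the member with the highest TPM.
RPL22: ctgcgtagttcgctcacctcCCTTTCTaac
RPL22L1: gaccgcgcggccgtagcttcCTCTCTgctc
RPS27: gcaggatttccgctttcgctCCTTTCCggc
RPS27L: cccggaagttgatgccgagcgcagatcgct
RPL26L1: caggcagtcttccaggggtcggcgaacgaa
RPL39: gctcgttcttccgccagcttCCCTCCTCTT
RPL35: aggtcagccccgcctacttcCTCTTTCCCT
These lie at chr1:6199586-6199615 (minus), chr3:170870186-170870215 (minus), chr1:153990742-153990771 (plus), chr15:63157468-63157497 (minus), chr5:172958709-172958738 (plus), chrX:119791621-119791650 (minus) and chr9:124861948-124861977 (minus). RPL22L1 has a TOP start like RPL22, whereas the starts of RPS27L and RPL26L1 do not begin with one.

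A promoter entry was matched for 67 members. A TOP start stood at 43 of them (64.2%), against 1104 of 27305 promoters in all (4.04%). In the window from 250 bases before to 50 bases after the start, searched on both strands, the ETS core CCGGAAG was found in 23 members (34.3%, against 10.7% of all promoters). The YY1 core AAGATGGC was found in 7 members (10.4%, against 3.03%), the SP core GGGCGG in 36 (53.7%, against 44.6%) and TATAAA in 7 (10.4%, against 11.95%). A match describes the letters of the window and is not a measured binding site.

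Members were among the most abundant protein-coding mRNAs of these cells. Averaged over the 5 libraries, 29 of the 50 protein-coding genes with the highest TPM and 51 of the highest 100 were members. The 77 core genes ranged from 129.9 TPM (RPS28) to 1900 TPM (RPL35), 14.6-fold, with a median of 497 and quartiles of 361 and 773. They lie on 21 different chromosomes. RPL35, a protein at the exit of the peptide tunnel, had TPM of 1876 and 1884 with si-NC and of 1832, 1915 and 1993 with si-circ_63706. RPL38, known for its role in translating Hox mRNAs, had 1345 and 1353 against 1413, 1480 and 1514. RPL11, which binds MDM2, followed with 1284 and 1283 against 1330, 1360 and 1400. The paralogues were far less abundant, at most 45.6 TPM on average (RPL7L1). RPL3L, known from muscle, was at 0.06 and 0.07 TPM with si-NC and at 0.03, 0.10 and 0.07 with si-circ_63706, and was the only member below the limit of 1 TPM for testing.

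The SHH markers GAB1 (1.34 to 1.79 TPM), YAP1 (14.2 to 20.5), SFRP1 (6.81 to 9.46) and ZIC1 (12.8 to 15.9) were present in every library, while GLI1 was at 0.29 to 0.49 TPM and ATOH1 at no more than 0.03. The highest of the 7 markers of blood, vessel or liver cells was at 0.23 TPM. PCNT, the host gene of circ_63706, had TPM of 9.96 and 10.4 with si-NC and of 8.80, 7.99 and 7.54 with si-circ_63706, and the table holds no separate value for the circular RNA. All protein-coding genes together held 29.02% of TPM in either control and 25.2%, 26.2% and 26.9% after si-circ_63706, and the genes tested had a median log2 fold change of -0.16. RN7SL1, the RNA of the signal recognition particle, alone took 25.6% and 25.4% of TPM in the controls and 28.1%, 29.2% and 29.1% after si-circ_63706. Its groups did not overlap, although it did not pass the test (limma adjusted p = 0.156), and its part in the lower values of other genes was not tested. Values of the members are therefore given both as deposited and relative to other genes.

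The members' summed TPM was a slightly smaller part of all RNA and a larger part of protein-coding RNA with si-circ_63706. Members made up 4.69% of all TPM in either control, beside 4.32%, 4.53% and 4.67% after si-circ_63706. The groups did not overlap, but si-circ_63706 replicate 3 lay close to the controls. Of protein-coding TPM, members made up 16.2% in either control, beside 17.1%, 17.3% and 17.3% after si-circ_63706. The means were 16.2% ± 0.00836 (SD, n = 2) and 17.3% ± 0.126 (SD, n = 3), a difference of 1.10 percentage points, several times the SD of either group. The share of small subunit genes in the members' TPM was 37.8% in either control and 37.6%, 37.5% and 37.5% after si-circ_63706. Shares of bulk RNA do not give amounts per cell, and fewer transcripts per cell and fewer cells of a type cannot be told apart.

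**Figure D1:**
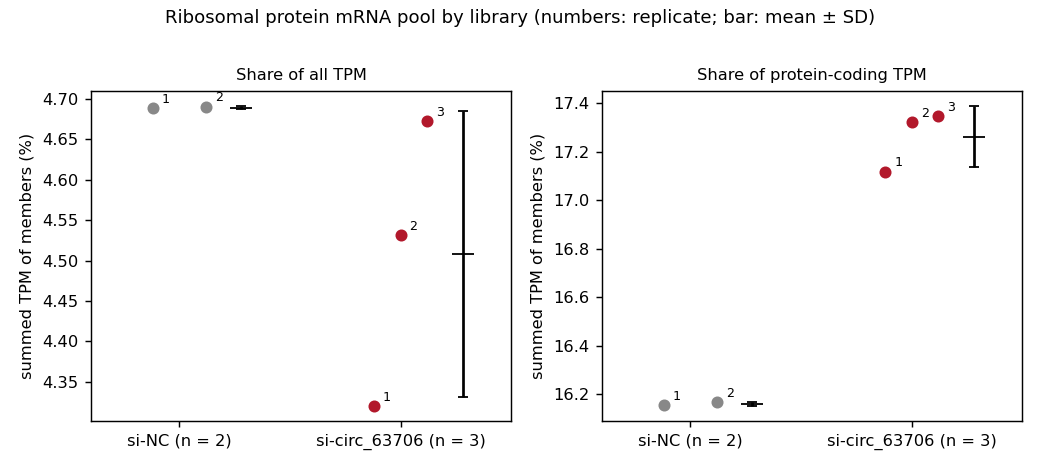
Summed TPM of the 84 cytosolic ribosomal protein genes in each library, as a percentage of all TPM (left) and of protein-coding TPM (right). Points are libraries labelled by replicate number and bars are mean ± SD (n = 2 and 3). The si-circ_63706 libraries lie below the si-NC libraries on the left (4.32% to 4.67% against 4.69%) and above them on the right (17.1% to 17.3% against 16.2%). Neither axis starts at 0.

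Members moved together among the si-circ_63706 libraries. Among the si-circ_63706 libraries, replicate 1 had the lowest TPM in 78 of the 84 members and replicate 3 the highest in 72. The median coefficient of variation of a member was 4.60% among the si-circ_63706 libraries and 1.39% between the si-NC libraries. Dividing each library by its summed TPM of members lowered the si-circ_63706 value to 1.49%, while the si-NC value did not fall (1.43%). Most of the spread of single members within the si-circ_63706 group was thus common to the members. The median over all tested genes showed the same order, so the order is not particular to the members. How far single other genes varied together was not examined. Relative to the 5-library mean, the median log2 value over all tested genes was -0.10, -0.06 and -0.03 in replicates 1, 2 and 3, beside -0.09, -0.02 and 0.03 over the members.

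Of the 83 members tested, 22 were lower and 5 were higher with si-circ_63706 (limma on log2(TPM + 1), adjusted p under 0.05), and 56 passed in neither direction. That is 26.5% lower and 6.02% higher, beside 35.4% lower and 4.16% higher among all 12710 genes tested. At an unadjusted p under 0.05 from limma, 28 members were lower and 8 higher. The shares of all tested genes at this threshold are not given here, but are at least the 35.4% and 4.16% above. The members' median log2 fold change was -0.08, and 60 of the 83 (72.3%) lay above the median of all tested genes. That count was 46 (55.4%) under quantile normalization. Without a minimum TPM it turned to 25 of 84 (29.8%), as the test then also took in genes near 0 and the median of all genes was 0.0023. All si-circ_63706 libraries lay below both si-NC libraries in 40 members and above them in 13 (background 55.2% and 8.93% of tested genes), and the groups overlapped in 30. These counts changed when single libraries were left out, as did the counts over all genes given at the end. Without si-circ_63706 replicate 2 the test gave 14 lower and 0 higher members. Leaving out a si-NC library left 1 control, so counts from those fits are not compared here. Without si-circ_63706 replicate 1, 21 were lower and 9 higher. The shares over all genes in these single fits are not given here, so the members' counts are not set against a background.

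**Figure D2:**
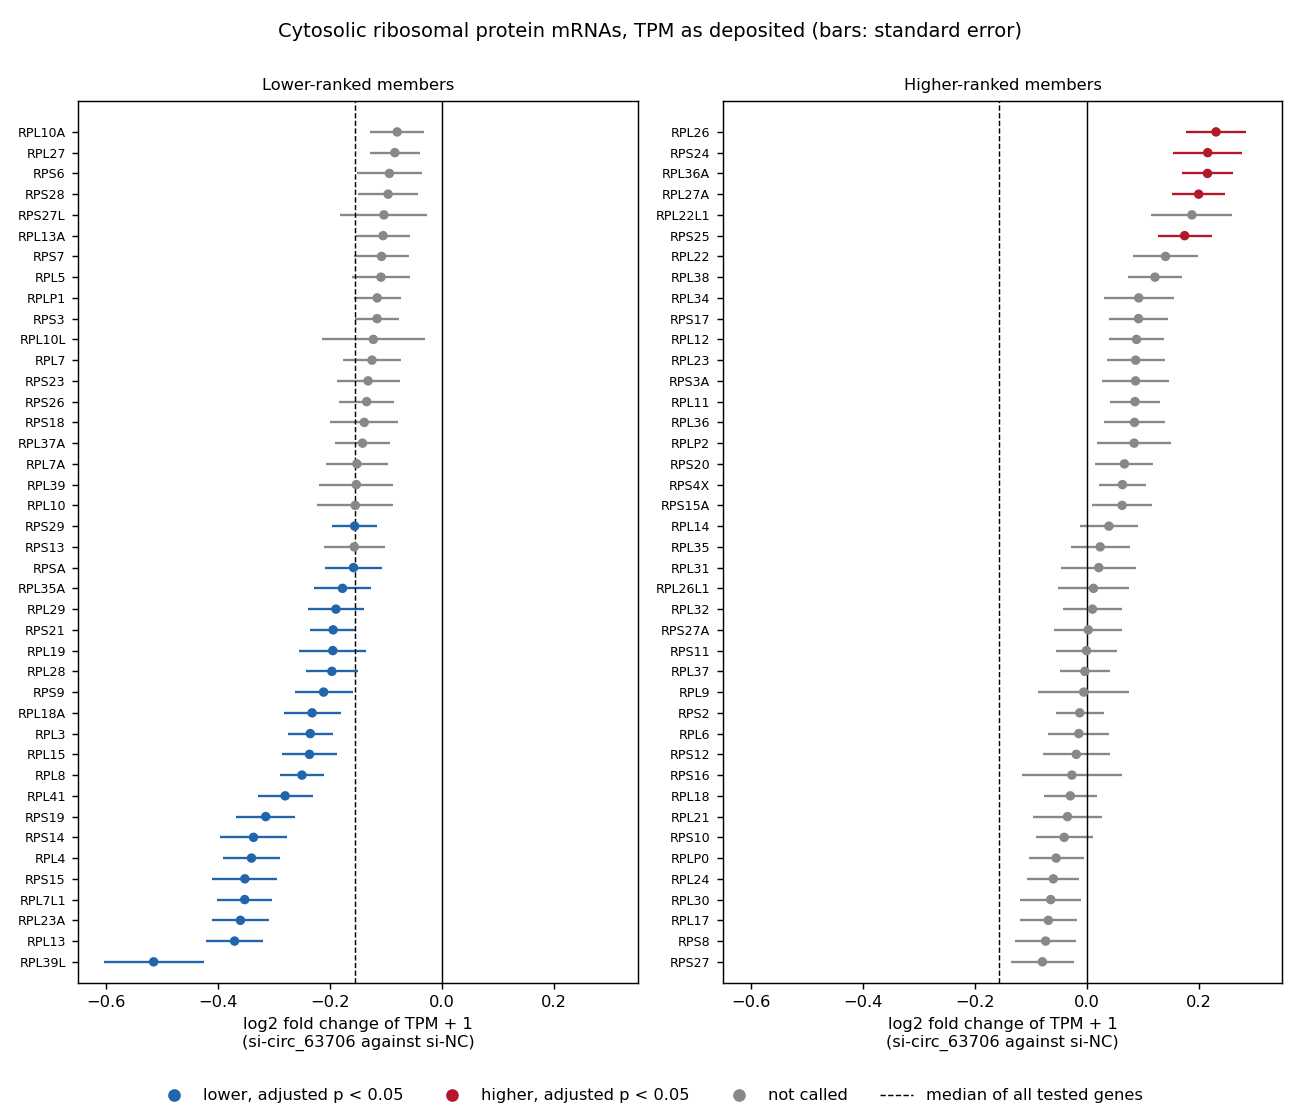
Log2 fold change of TPM + 1, si-circ_63706 (n = 3) against si-NC (n = 2), for 82 of the members tested, ordered by value over both panels. Points are limma estimates with standard errors, coloured by the call at an adjusted p under 0.05, and the dashed line is the median of all tested genes (-0.16). The 21 lower members plotted reach -0.52 (RPL39L), the 5 higher members reach 0.23 (RPL26), and most others lie between the dashed line and 0.

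The higher group consists of 5 core genes, each higher in every si-circ_63706 library than in either si-NC library. RPL26, a protein beside the tunnel exit (ENSG00000161970, chromosome 17, 8377516 to 8383250 on GRCh38), had TPM of 864 and 874 with si-NC and of 974, 1016 and 1074 with si-circ_63706. The log2 fold change was 0.23 (SE 0.0540, limma adjusted p = 0.0174). RPS24, a small subunit protein needed for rRNA maturation (ENSG00000138326, chromosome 10, 78033732 to 78056813), had 713 and 731 against 794, 827 and 899 TPM. Its log2 fold change of 0.22 (SE 0.0618, limma adjusted p = 0.0334) was of the same size.
RPL36A (ENSG00000241343, chromosome X, 101390824 to 101396154) had TPM of 618 and 620 with si-NC and of 697, 718 and 744 with si-circ_63706, and a log2 fold change of 0.22 (adjusted p = 0.0129 from limma). RPL27A (ENSG00000166441, chromosome 11, 8682411 to 8714759) had 711 and 707 against 784, 818 and 843 TPM, a log2 fold change of 0.20 (adjusted p = 0.0184 from limma). RPS25, a protein that some viral internal ribosome entry sites need (ENSG00000118181, chromosome 11, 119015712 to 119018691), had 267 and 285 against 306, 308 and 320 TPM, a log2 fold change of 0.18 (adjusted p = 0.0300 from limma). With si-circ_63706 these genes came to between 113% and 118% of their si-NC mean. Genes on the opposite strand with at least 1 TPM overlap RPL27A and RPS25, and the sources used here do not say whether reads were counted by strand.

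The lower group was led by RPL39L, a paralogue known from the testis whose core gene RPL39 lines the peptide tunnel. RPL39L (ENSG00000163923, chromosome 3, 187120948 to 187180908) had TPM of 21.3 and 19.5 with si-NC and of 12.4, 14.5 and 15.2 with si-circ_63706. Its log2 fold change was -0.52 (SE 0.0895, limma adjusted p = 0.00673), the lowest of all members, with a range of -0.58 to -0.44 when single libraries were omitted. The groups did not overlap.
RPL13 (ENSG00000167526, chromosome 16, 89560657 to 89566828) had 443 and 423 against 320, 337 and 347 TPM, with a log2 fold change of -0.37 (adjusted p = 0.00332 from limma). RPL23A, at the tunnel exit where the signal recognition particle docks (ENSG00000198242, chromosome 17, 28719393 to 28724359), had 438 and 437 against 329, 335 and 358 TPM, with a log2 fold change of -0.36 (adjusted p = 0.00351 from limma). The TPM of RPL13 and RPL23A with si-circ_63706 came to 77.3% and 77.9% of the si-NC mean, with no overlap between the groups.
RPL7L1, a paralogue of RPL7 (ENSG00000146223, chromosome 6, 42879618 to 42889925), had TPM of 53.9 and 51.2 with si-NC and of 39.9, 40.4 and 42.5 with si-circ_63706, with a log2 fold change of -0.35 (adjusted p = 0.00358 from limma). The members called lower that are not named here by value had log2 fold changes up to -0.16.

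Of the members whose loss is known from inherited or acquired anaemia, RPS19 and RPS14 were lower, while RPS24 was among the higher genes above. RPS19 had TPM of 736 and 739 with si-NC and of 560, 605 and 613 with si-circ_63706, and a log2 fold change of -0.32 (adjusted p = 0.00600 from limma). RPS14 had 496 and 498 against 366, 407 and 409, a log2 fold change of -0.34 (adjusted p = 0.00698 from limma). RPL41, the smallest ribosomal protein, had 944 and 936 against 742, 781 and 800, a log2 fold change of -0.28 (adjusted p = 0.00682 from limma). In all 3 the groups were well apart.
RPL3, which lies near the peptidyl transferase centre, had 351 and 361 against 300.3, 300.4 and 306 TPM as deposited, a log2 fold change of -0.24 (adjusted p = 0.00635 from limma). When libraries were centred on the median gene this was -0.08 and no longer passed (adjusted p = 0.118 from limma). RPSA, a small subunit protein also known as the laminin receptor precursor, had 367 and 360 against 310.2, 328 and 339 TPM (log2 fold change -0.16, adjusted p = 0.0480 from limma). RPSA was called in none of the other 5 scalings described below, with a log2 fold change of 0.00017 when centred on the median gene (adjusted p = 0.998 from limma), nor without a minimum TPM (adjusted p = 0.149). The MDM2-binding proteins RPL5 (log2 fold change -0.11), RPL11 (0.09) and RPL23 (0.09) did not pass the test, with adjusted p of 0.135, 0.171 and 0.217 from limma. Nor did the stalk proteins RPLP0 (-0.05), RPLP1 (-0.12) and RPLP2 (0.08), which recruit elongation factors, with adjusted p of 0.409, 0.0689 and 0.343. RPS6, the substrate of the S6 kinases (-0.09), RPS3 (-0.12), the ubiquitin fusion RPS27A (0.00) and RPL38 (0.12) were not called either, with adjusted p of 0.237, 0.0592, 0.973 and 0.0898.

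How many members counted as lower or higher depended on the scale. When libraries were centred on their median gene, 10 members were lower and 33 higher, beside 13.7% and 13.1% of all genes tested, and the members' median log2 fold change was 0.08. With protein-coding genes alone rescaled to the same total, 12 members were lower and 40 higher, beside 18.3% and 12.1% of 13186 genes, and the median was 0.07 against -0.04 for all genes. Quantile normalization gave 12 and 16 (13.2% and 12.5% of all genes), with a median of 0.03. Centring on the members themselves, tried after the data were seen, gave 18 and 21 (23.2% and 7.34%).
Under the scaling to median gene, RPL38 (0.28), RPL11 (0.25), RPL23 (0.25), RPL22 (0.30), RPLP2 (0.24) and RPL35 (0.18) passed as higher, with adjusted p from limma between 0.00242 and 0.0136. All 5 genes called higher as deposited were higher again, and of the 22 called lower 10 were lower again, 12 were not called and 0 were higher. Over 6 scalings, the last of which removes a trend with GC content, 8 members were lower every time, among them RPL39L, RPL13, RPL23A, RPL7L1, RPL4, RPS14 and RPL41. The 5 higher genes, RPL26, RPS24, RPL36A, RPL27A and RPS25, were higher every time. RPL8 was called in opposite directions, and 18 members passed under none of the scalings. RPL4 and RPL8 are named after their values were seen.

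**Figure D3:**
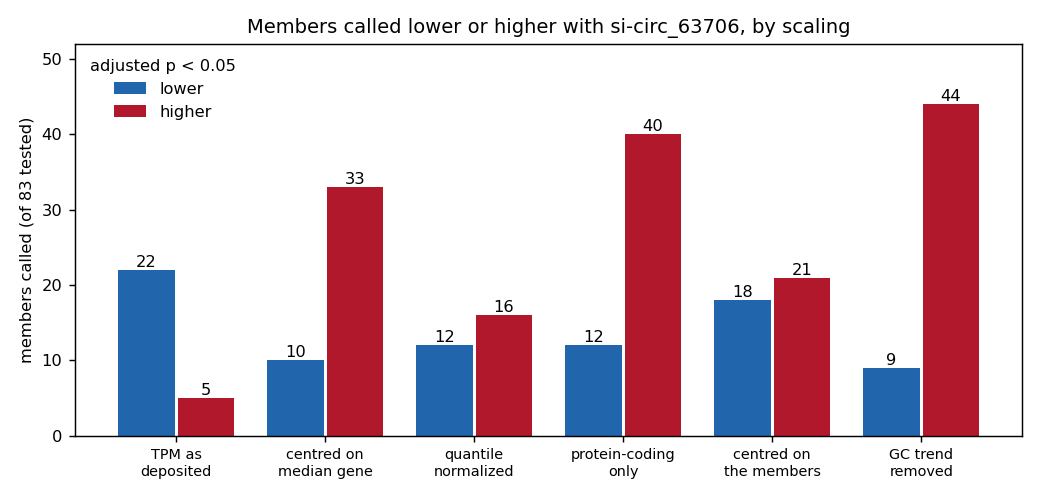
Number of the 83 tested members called lower (blue) or higher (red) with si-circ_63706 at an adjusted p under 0.05, for each of 6 ways to scale the libraries. As deposited, 22 were lower and 5 higher, whereas centring on the median gene gave 10 and 33 and removing the GC trend gave 9 and 44.

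By subunit the counts as deposited were similar in proportion, beside 35.4% lower and 4.16% higher among all genes tested. In the large subunit 14 genes were lower and 3 higher of 51 tested, with a median log2 fold change of -0.07. In the small subunit 8 were lower and 2 higher of 32, with a median of -0.10. Of the 43 members with a TOP start 9 were lower and 5 higher (median -0.05). Of the 24 with another annotated start 8 were lower and 0 higher (median -0.11). The shares over all genes for these counts are those just given. With protein-coding genes alone scaled, 3 were lower and 23 higher of the 43, and 5 lower and 8 higher of the 24, beside 18.3% lower and 12.1% higher among all genes. All 5 higher genes had a TOP start, among them the tracts of RPL26 and RPS24 shown above, but so did RPS19, RPS14 and RPL41, which were lower. The rule reads only 1 annotated start per gene, so another start need not mean an mRNA without a TOP tract. RPL3, for example, has 3 pyrimidines after the C and falls short of the limit of 4. The difference between members with a TOP start and with another start was not tested.

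The log2 fold change of members fell with the GC content of their mRNAs. Across the 83 members, which are not independent replicates and share all libraries, Spearman's rho was -0.32 and Pearson's r -0.31. Across all 11269 tested protein-coding genes rho was -0.34. The GC content had a median of 53.4% in the 22 lower members, 45.9% in the 5 higher members and 48.6% in the other 56. Exceptions went both ways, since RPL7L1 (45.3%) and RPL23A (49.6%) were lower and RPL27A (52.02%) was higher. When the trend with GC content over protein-coding genes was removed, an alternative added after the data were seen, 9 members were lower and 44 higher, beside 14.8% and 15.8% of 11244 genes. This step also rescales and centres each library on protein-coding genes, so its counts do not show the part of GC content alone. RPS15 and RPS19 were then no longer called (limma adjusted p = 0.380 and 0.145), although both were lower when centred on the median gene. RPL3 was not called either (limma adjusted p = 0.810). It had also not passed when centred on the median gene (0.118) or with protein-coding genes only (0.0586). RPL13 stayed lower (limma adjusted p = 0.00531). The part of GC content in the result as deposited was not tested further.

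**Figure D4:**
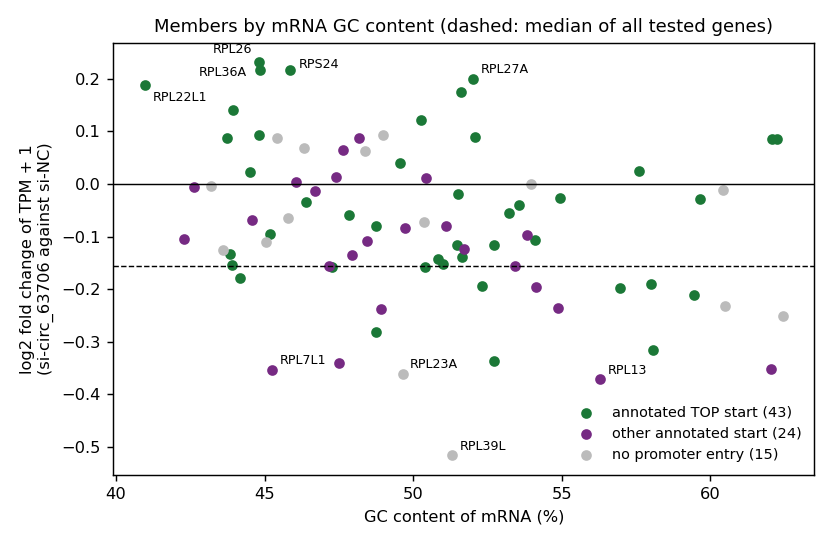
Log2 fold change of 82 tested members against the median GC content of its annotated mRNAs in percent, coloured by the annotated start (43 with a TOP start, 24 with another start, 15 with no promoter entry). The solid line marks 0 and the dashed line the median of all tested genes (-0.16). The points slope downwards (Spearman's rho -0.32 over all 83), and the 5 higher members all have a TOP start.

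Paralogues were compared with their core gene in the same library, a ratio that no scaling of a whole library by 1 factor can change. Quantile normalization and removal of the GC trend shift genes of a library unequally and can change it. The exact permutation test over the 5 libraries (two-sided) cannot give a p below 0.1 here, and 6 pairs were compared. RPL39L came to 6.64% and 5.81% of the TPM of RPL39 with si-NC and to 4.54%, 4.84% and 4.83% with si-circ_63706. RPL7L1 came to 7.97% and 7.26% of RPL7 against 6.59%, 6.37% and 6.44%. RPL26L1 came to 3.76% and 3.69% of RPL26 against 3.12%, 3.25% and 3.24%. In these 3 pairs the groups did not overlap, and each had an exact permutation p of 0.1, the smallest possible, or 0.2 after Benjamini-Hochberg adjustment over the 6 pairs. The value of RPL39 is uncertain because of its pseudogenes. With pseudogene TPM added to both genes, an alternative added after the data were seen, RPL39L came to 5.56% and 4.54% of RPL39 against 4.29%, 4.34% and 4.36%, and the log2 difference went from -0.39 to -0.22. Those of RPL7L1 and RPL26L1 were -0.23 and -0.22 with and without pseudogenes.
The TPM of RPL26L1 itself did not pass the test, at 32.5 and 32.3 with si-NC and 30.4, 33.0 and 34.8 with si-circ_63706, while that of RPL26 rose. RPL39 had 321 and 336 TPM against 274, 299 and 314, and RPL7 had 676 and 705 against 606, 634 and 659. Neither core gene passed the test as deposited (adjusted p of 0.109 and 0.1001 from limma).
The other pairs overlapped. RPL22L1, whose mRNA the RPL22 protein can bind, came to 16.8% and 15.7% of RPL22 with si-NC and to 16.0%, 18.1% and 16.3% with si-circ_63706 (exact permutation p = 0.7). RPS27L came to 3.15% ± 0.0114 (SD, n = 2) of RPS27 and 3.09% ± 0.195 (SD, n = 3), with an exact permutation p of 0.9. RPL10L, an intronless copy of RPL10, came to 0.751% ± 0.0799 (SD, n = 2) and 0.748% ± 0.0173 (SD, n = 3), with an exact permutation p of 1.

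**Figure D5:**
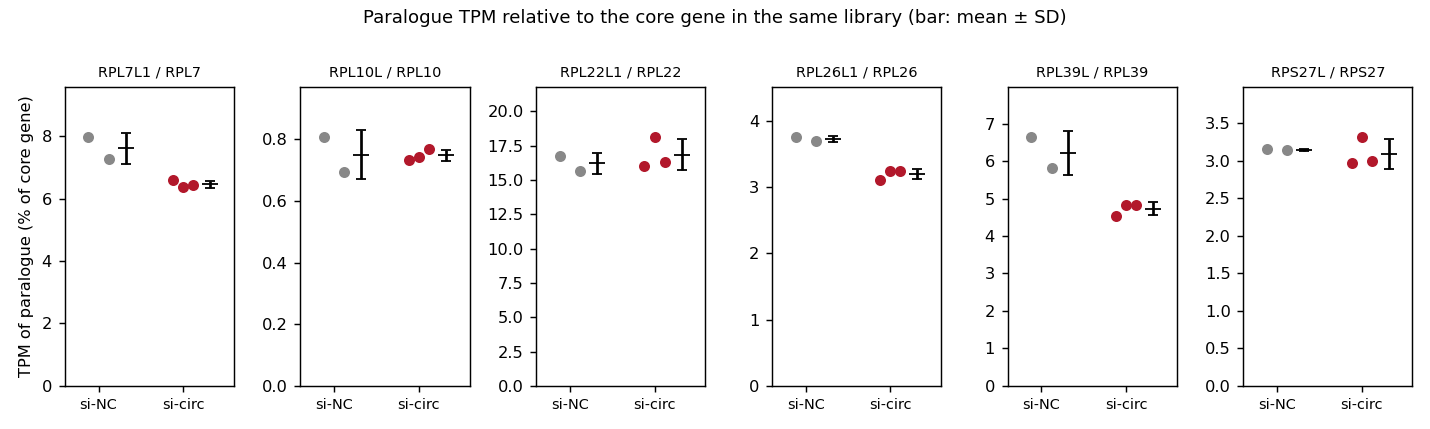
TPM of each paralogue as a percentage of the TPM of its core gene in the same library, with si-NC (grey, n = 2) and si-circ_63706 (red, n = 3). Points are libraries and bars are mean ± SD, and each panel has its own axis from 0. The groups are apart for RPL7L1, RPL26L1 and RPL39L (6.23% against 4.74% for RPL39L) and overlap for RPL10L, RPL22L1 and RPS27L.

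Ribosomal protein genes have many processed pseudogenes, copies without introns that can share reads with their parent. The table lists 1015 named for 76 of the members. Their summed TPM was 547 and 584 with si-NC and 443, 484 and 496 with si-circ_63706, at most 1.25% of the members' own. For RPL23A, RPL9 and RPL39 the pseudogenes came to 45.9%, 34.9% and 15.6% of the parent's TPM, and for every other member to no more than 2.58%. The values of these 3 genes are therefore uncertain. RPL39P3 had TPM of 61.9 and 92.9 with si-NC and of 12.7, 32.6 and 31.0 with si-circ_63706. With pseudogene TPM added to the parent, RPL39 passed as lower (log2 fold change -0.33, adjusted p = 0.0286 from limma), RPL23A stayed lower at -0.30 (adjusted p = 0.00452 from limma), and 23 members were lower and 5 higher.
Overlapping genes limit some other values. A gene of at least 1 TPM lies on the opposite strand over 26 members, and over RPS29 that gene is RN7SL1, the most abundant RNA of the table. A gene on the same strand overlaps RPS13, RPS10 and RPL17.

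Many members carry small nucleolar RNAs (snoRNAs), which guide rRNA modification, in their introns. The annotation places 60 snoRNA genes inside 28 members. Of these, 42 were listed at 0 in every library, among them 39 of 41 C/D snoRNAs and 2 of 18 H/ACA snoRNAs. Whether the 0 values reflect expression or the method was not tested. Of the 16 tested, SNORA52 was lower and SNORD15B higher, beside 35.4% lower and 4.16% higher among all genes tested. SNORA52, inside RPLP2, had TPM of 73.8 and 60.5 with si-NC and of 45.9, 44.2 and 25.01 with si-circ_63706 (log2 fold change -0.83, adjusted p = 0.0418 from limma). SNORD15B, inside RPS3, had 76.0 and 105 TPM against 126, 132 and 135 (log2 fold change 0.55, adjusted p = 0.0166 from limma). Neither host gene was called as deposited.

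Genes that work with the ribosomal proteins were counted in the same test (background 35.4% lower and 4.16% higher). Of the ribosomal proteins outside the symbol rule, FAU was lower as deposited (log2 fold change -0.17, limma adjusted p = 0.0215), and RPL36AL (-0.0021) was not called. Centred on the median gene, FAU was at -0.02 and did not pass (limma adjusted p = 0.737). RACK1, listed as GNB2L1, had 1368 and 1326 TPM against 1137, 1217 and 1266 and did not pass. Of 6 elongation factors 3 were lower and 1 higher. EIF5A (log2 fold change -0.38) and EEF1A1 (-0.26), which brings aminoacyl-tRNA to the ribosome, were lower. EEF2, the translocase, rose from 571 and 587 to 683, 709 and 731 TPM, a log2 fold change of 0.29 (adjusted p = 0.00564 from limma). Centred on the median gene, the elongation factors had 1 lower and 3 higher, beside 13.7% and 13.1% of all genes tested. EEF1A1 then no longer passed (limma adjusted p = 0.0722).
Of 18 other mRNAs known to carry a TOP tract, 8 were lower and 2 higher, with a median log2 fold change of -0.12. VIM, the intermediate filament vimentin (-0.38), and EIF3F (-0.27) were lower, and EIF3E (0.25), a subunit of the same initiation factor as EIF3F, was higher. Centred on the median gene, this list had 1 lower and 7 higher, and EIF3F no longer passed (limma adjusted p = 0.107).
Of 11 chaperones and loaders of single ribosomal proteins 3 were lower and 0 higher. RRS1, which helps load RPL5 and RPL11, had 12.03 and 11.4 TPM against 8.38, 8.54 and 8.01 (log2 fold change -0.45, adjusted p = 0.00237 from limma). GRWD1, the chaperone of RPL3, was also lower as deposited (-0.34). It did not pass when centred on the median gene (limma adjusted p = 0.0587), where this list had 1 lower and 0 higher. Of 12 tested genes of the mTORC1 pathway with LARP1, 6 were lower and 0 higher as deposited and 0 were lower when centred, with RPTOR (-0.32) and MLST8 (-0.31) the lowest and LARP1 at 0.04.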

How the data were processed

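The authors sequenced total RNA of 5 DAOY libraries and deposited TPM for each gene, rounded to 2 decimals. The submitters' processing notes name cutadapt 2.3, STAR 2.7.0d, RSEM 1.3.1 and hg38. TPM sum to 1000000 per library over all RNA classes, and values of 1 RNA class therefore fall when another class takes more. The table holds no counts, so the depth per library is unknown and no interval for counting error was computed. Groups were taken from the labels.

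Genes averaging at least 1 TPM were tested with limma 3.58.1 in R 4.3.3, using a linear model on log2(TPM + 1) with group as the only term and a mean-variance trend, and p values were adjusted (Benjamini-Hochberg) over all tested genes (two-sided, threshold 0.05). Fold changes on this scale understate the change of low genes. The procedure was tested on simulated data. Positions, mRNA GC content (median over basic protein-coding transcripts), overlaps and snoRNAs came from GENCODE 29 and promoter sequences from RefSeq. Paralogue ratios were compared by exact permutation of the libraries.

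The alternatives were a pseudocount of 0.1, no minimum or a minimum of 5 TPM, centring on the median gene (over genes of at least 10 TPM), quantile normalization, protein-coding genes only, no trend, array quality weights, a replicate block, pseudogene TPM added, and leaving out each library. Centring on the members and removing a GC trend (lowess, span 0.5) were added after the data were seen. The GC fit used protein-coding genes only and also centred each library. The members and gene lists were chosen with earlier results of these data known. Named members are the 5 lowest and 5 highest fold changes, the 3 highest levels, any untested member, the paralogue pairs and members with a well-known role. Some of these members and some related genes are not reported here. Members named for a level, an overlap, a pseudogene share or a call under an alternative were chosen after their values were seen. Tables and plots were made in Python 3.11.15 (pandas 2.3.3, numpy 2.4.6, matplotlib 3.10.9).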

Additional observations from a re-analysis of the deposited data

Results flagged for a closer look

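The pseudogenes of the members lie outside the comparison of the members themselves, and more of them had a TPM above 0 with si-circ_63706 than in the controls. Of 1015 listed, 333 and 329 were above 0 in the si-NC libraries (331 ± 2.83, SD, n = 2) and 444, 445 and 430 in the si-circ_63706 libraries (439.7 ± 8.39, SD, n = 3), while their summed TPM was lower, at 566 ± 26.2 and 474 ± 28.1. The part of depth in this difference was not tested, because the table gives no depth. The number of all listed genes above 0 in each library is not given here. Whether the difference is particular to these pseudogenes is therefore not known.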

How the results depend on the processing

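As deposited, 4504 genes were lower and 529 higher, and of the members 22 and 5. When single libraries were left out, all genes gave 1960 to 4289 lower and 208 to 578 higher, and members 6 to 24 lower and 0 to 9 higher. These ranges include fits with only 1 si-NC library. Without a minimum TPM, 2597 and 292 genes and 13 and 0 members passed, in a test over more genes. Without a mean-variance trend 3 members were higher. Centred on the median gene, 1737 genes were lower and 1671 higher, and members 10 and 33, with a members' median of 0.0782. Quantile normalization gave 1682 and 1584 genes, 12 and 16 members and a median of 0.0305. Protein-coding genes only gave 2419 and 1591 genes, 12 and 40 members and a median of 0.0720. Removing the GC trend gave 1668 and 1780 genes, 9 and 44 members and a median of 0.0909. Centring on the members gave 2947 and 933 genes, 21 higher members and a median of -0.0035. The cause of the differences between scalings was not tested. Single members changed sign where a call was made on either side. RPSA reached 0.00017 when centred and 0.0230 without the GC trend, RPS27 reached 0.0737 with protein-coding genes only and 0.0877 without the GC trend, RPLP0 reached 0.10 and 0.15, and RPS3 0.0752 without the GC trend. A pseudocount of 0.1, a minimum of 5 TPM, array quality weights and added pseudogene TPM kept each count of members within 1.5 times.

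Replicate numbers are shared by both groups, but same-numbered libraries did not deviate together (r = 0.01 and 0.03), so they were not treated as pairs. With the replicate number as a block, 325 genes were higher, and 19 members were lower and 0 higher. Replicate 3 has no control of the same number, so in this fit it adds nothing to the estimated difference.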
